A study of Mus musculus with 6 samples.

Results

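Glycogen is the branched glucose store of animal cells, and 8 genes of its synthesis and breakdown were followed in wound tissues of diabetic mice. They were taken by name from a list of glycogen genes and found in the deposited table by Ensembl ID and mouse symbol, 8 of 33184 genes in all. The list was drawn up with results of the same NC and SFRP2-siRNA comparison in view, to set liver and fat isoforms against muscle isoforms. The differences between the groups are therefore a description and not independent evidence. RNA-seq had been performed on 6 libraries of skin wound tissue, all from mice of the genotype dbdb, which lack a working leptin receptor and are obese and diabetic. Round wounds of 6 mm went through epidermis and dermis, and at dpi1 (1 day post-injury) the wound margin was injected with NC siRNA, a control, or with SFRP2 siRNA. Tissues were frozen at dpi4, while the sample titles carry day 3. Each group had 3 libraries, wild-type and uninjected wounds were not analysed here, and age and sex were not given in the sources used here. The treated libraries are numbered like the study's 3 SFRP2 siRNA sequences, and whether each received a different sequence is not stated. Nothing in the labels says which libraries came from separate animals, so errors and p-values measure the spread between these libraries.

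Glycogen is begun on the protein glycogenin, extended by glycogen synthase and given its branches by the branching enzyme. Glycogen phosphorylase cuts glucose units from the chain ends, and protein phosphatase 1, held on the particle by targeting subunits, switches synthase on and phosphorylase off. Synthase and phosphorylase exist as isoforms of separate genes, named after liver, muscle or brain, and fat cells also use the liver isoform of synthase. Skin wounds hold several glycogen users, among them keratinocytes, leukocytes, dermal fat and the thin panniculus carnosus muscle beneath the dermis.

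The libraries held 42.9 to 47.1 M reads, as recovered from the FPKM values, which divide the fragments of a gene by its length and the library total. The siRNA target itself, Sfrp2, had 11.6, 40.6 and 14.1 FPKM in NC 1, 2 and 3, and 50.6, 54.6 and 55.2 FPKM among libraries labelled SFRP2-siRNA 1, 2 and 3. Its mRNA was thus higher where it was targeted, and every direction here is given by library label and not by the level of Sfrp2 mRNA. SFRP2 protein was not analysed here, and the study reported less of it by immunofluorescence in wounds of diabetic mice given SFRP2 siRNA. The library labelled SFRP2-siRNA 1 stood apart in hair follicle keratins. Its 4 markers summed to 17.6 FPKM, against 2005 to 4070 FPKM in the other 5 libraries, and results are given without it where it matters. Skin and muscle markers were abundant in each library. The 5 liver markers, Alb included, summed to 0.902 to 4.59 FPKM, so the isoforms named after liver were read here in tissue with almost no liver transcripts.

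All 8 genes passed the filter of 0.5 FPKM on the mean level. Levels of different genes in FPKM also depend on the exon length used for each gene. In NC the order of mean FPKM was Pygm, Pygl, Gyg, Ppp1r3c, Gys1, Pygb, Gbe1 and Gys2. Ranges of neighbours in that order were apart between Pygl and Gyg and between Gbe1 and Gys2, and overlapped elsewhere. In the libraries labelled SFRP2-siRNA, Pygl had moved from the second place to the sixth, between Pygb and Gbe1, and the order of the other 7 genes was as in NC. Pygm there lay apart from Gyg, and Pygl, Gbe1 and Gys2 lay apart from each other.

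**Figure D1:**
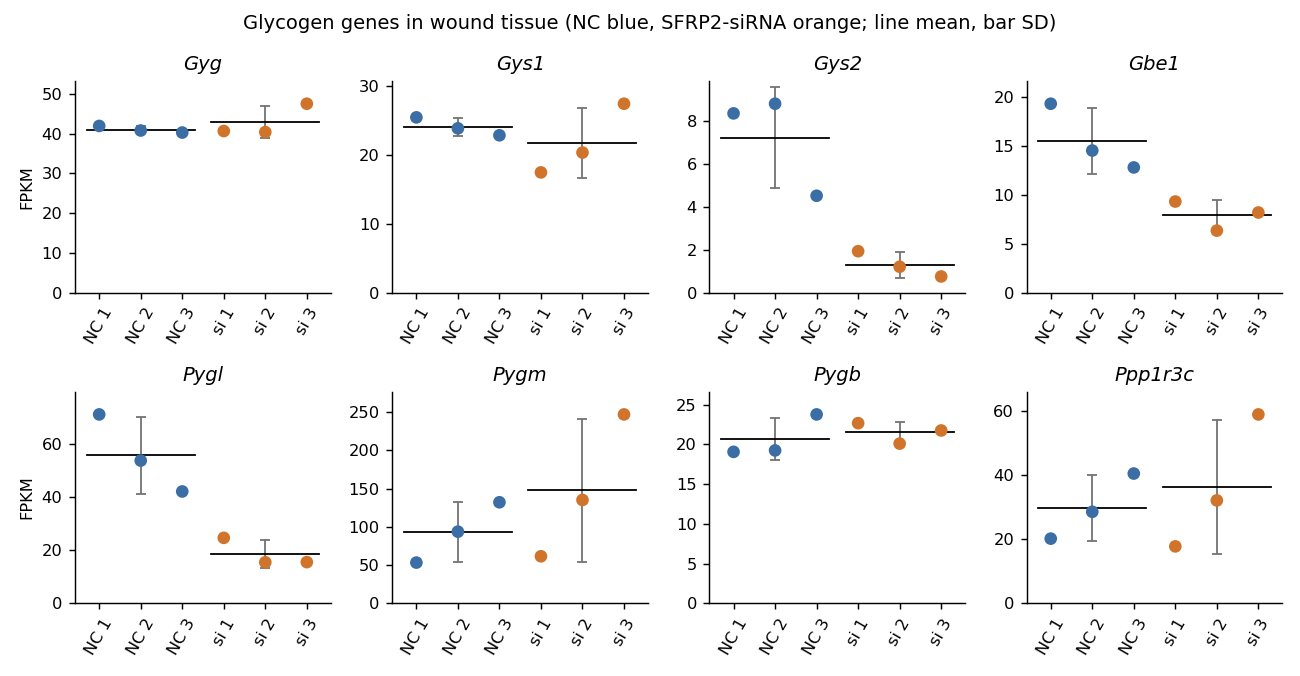
FPKM (vertical axes, from 0, with a scale of their own) of the 8 glycogen genes in each library, NC in blue and SFRP2-siRNA (si) in orange, with the group mean as a line and the SD as a bar. Gys2, Gbe1 and Pygl have all 3 orange points below all 3 blue points, and the groups overlap for Gyg, Gys1, Pygm, Pygb and Ppp1r3c.

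Gyg (ENSMUSG00000019528) encodes glycogenin, the primer of the particle. It had 41.9, 40.8 and 40.3 FPKM in NC 1, 2 and 3, against 40.7, 40.4 and 47.5 FPKM in SFRP2-siRNA 1, 2 and 3. The values were close to each other in both groups, and only SFRP2-siRNA 3 stood above the rest. The difference was 0.06 on the log2 scale, with a 95% interval of -0.26 to 0.38, and its sign changed to -0.10 with median-of-ratios scaling.

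Gys1 (ENSMUSG00000003865), the synthase of muscle and most other tissues, had 25.4, 23.8 and 22.8 FPKM in NC 1, 2 and 3. In SFRP2-siRNA 1, 2 and 3 the values were 17.5, 20.3 and 27.4 FPKM. The NC values lay inside the range of the other group, with a log2 difference of -0.16 (95% interval -0.60 to 0.28). It was -0.023 without SFRP2-siRNA 1 and -0.33 without SFRP2-siRNA 3. Gys2 (ENSMUSG00000030244), the synthase of liver and fat, was the lowest of the 8 genes. It had 8.37, 8.82 and 4.53 FPKM in NC 1, 2 and 3, against 1.94, 1.21 and 0.759 FPKM in SFRP2-siRNA 1, 2 and 3. Every library labelled SFRP2-siRNA lay below every NC library, and NC 3 was the lowest of NC. Group means (± SD, n = 3) were 7.24 ± 2.36 FPKM in NC and 1.30 ± 0.595 FPKM in SFRP2-siRNA, a ratio of 5.55. The log2 fold change was -1.82 (SE 0.28), on the log2(FPKM + 1) scale, which understates changes of low genes, and was -2.42 with a pseudocount of 0.1. The value rested on 551 to 1098 reads in NC and on 95 to 221 reads among libraries labelled SFRP2-siRNA.

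Gbe1 (ENSMUSG00000022707), the branching enzyme, had 19.3, 14.6 and 12.8 FPKM in NC 1, 2 and 3. In SFRP2-siRNA 1, 2 and 3 it had 9.33, 6.36 and 8.21 FPKM, below every NC library. NC averaged 15.6 ± 3.38 FPKM and SFRP2-siRNA 7.97 ± 1.5 FPKM (SD, n = 3), with a log2 fold change of -0.88 (SE 0.20). Unlike synthase and phosphorylase, branching enzyme has no tissue isoforms, so this transcript serves every glycogen-making cell of the wound.

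Pygl (ENSMUSG00000021069), the liver phosphorylase, had 71.2, 53.8 and 42.2 FPKM in NC 1, 2 and 3, against 24.7, 15.5 and 15.6 FPKM in SFRP2-siRNA 1, 2 and 3. The groups did not overlap, and the lowest NC library, NC 3, was well above the highest of the others, SFRP2-siRNA 1. Pygl averaged 55.8 ± 14.6 FPKM in NC and 18.6 ± 5.29 FPKM in SFRP2-siRNA (SD, n = 3), on 4849 to 21663 reads per library. The log2 fold change was -1.53 (SE 0.26). Gbe1 and Pygl ranked the 6 libraries in the same order, with NC 1 highest and SFRP2-siRNA 2 lowest.

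Pygm (ENSMUSG00000032648), the muscle phosphorylase, varied most between libraries of the same group. It had 53.3, 93.7 and 132 FPKM in NC 1, 2 and 3, against 61.6, 135 and 247 FPKM in SFRP2-siRNA 1, 2 and 3. The highest library exceeded the lowest of its group by 2.48-fold in NC and 4.01-fold among libraries labelled SFRP2-siRNA, and the groups overlapped. The log2 fold change of 0.54 (SE 0.55) was within this spread. It was 0.066 without SFRP2-siRNA 3 and 1.06 without SFRP2-siRNA 1. Pygb (ENSMUSG00000033059), the brain isoform, had 19.1, 19.3 and 23.8 FPKM in NC 1, 2 and 3, against 22.7, 20.1 and 21.8 FPKM in SFRP2-siRNA 1, 2 and 3. It was the steadiest phosphorylase, with a log2 difference of 0.06 (95% interval -0.28 to 0.40) and a sign that turned to -0.09 with median-of-ratios scaling. Gfap, a marker of astrocytes in brain, was under 1 FPKM in each library.

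Ppp1r3c (ENSMUSG00000067279) encodes PTG, the subunit that targets protein phosphatase 1 to glycogen. It had 20.2, 28.5 and 40.4 FPKM in NC 1, 2 and 3, against 17.7, 32.0 and 58.8 FPKM in SFRP2-siRNA 1, 2 and 3. The groups overlapped across their whole range, with a log2 fold change of 0.17 (SE 0.44). It turned to -0.25 without SFRP2-siRNA 3 and to -0.068 without NC 1, so no direction is given.

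Over the 8 genes, 3 had all libraries labelled SFRP2-siRNA below all NC libraries, 0 had them all above, and 5 overlapped. Over all 16005 genes tested, 3.92% were lower and 13.9% higher with groups that did not overlap. With limma, 0 of the 8 genes had an adjusted p under 0.05 with an absolute log2 fold change above 1, as did 0% of all genes tested. The study applied the same thresholds with DESeq2 and reported genes changed in both directions in wound tissue at dpi4. Limma on log2(FPKM + 1) is a different test, so the counts are not compared. Before adjustment 3 of the 8 had a limma p under 0.05 (Gys2, Gbe1 and Pygl), against 9.58% of all genes. The adjusted limma p was 0.518 for these 3 genes and 0.661 to 0.863 for the other 5. The median log2 fold change was -0.051 over the 8 genes and 0.125 over all genes. These genes were chosen on this contrast, so nothing is drawn from their count.

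Within each library the liver isoform was then set against the muscle isoform. FPKM divides by gene length, so levels of different genes depend on the exon lengths used. In GENCODE vM21 these are 4789 bases for Gys1, 2657 for Gys2, 6895 for Pygl, 3218 for Pygm and 4809 for Pygb. The lengths are the same in every library, so shares are compared between libraries and not read as absolute amounts. No run of 50 bases was shared between the transcripts of Gys1 and Gys2 or between Pygl and either other phosphorylase. Pygm and Pygb shared 13 such runs, counted from every start base, so they can overlap and need not be separate stretches. Gys2 made up 24.8%, 27.0% and 16.5% of the summed synthase FPKM in NC 1, 2 and 3. Its share was 9.99%, 5.63% and 2.69% in SFRP2-siRNA 1, 2 and 3, below every NC library. Mean shares were 22.8 ± 5.51% and 6.11 ± 3.67% (SD, n = 3 each). Summed synthase FPKM was 27.4 to 33.8 in NC and 19.4 to 28.2 among libraries labelled SFRP2-siRNA and overlapped, since Gys1 carried most of it.

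Phosphorylases showed a similar shift, but with overlap. Pygl made up 49.6%, 32.3% and 21.3% of the summed phosphorylase FPKM in NC 1, 2 and 3, and 22.7%, 9.09% and 5.48% in SFRP2-siRNA 1, 2 and 3. SFRP2-siRNA 1 thus lay just above NC 3. Pygm took 37.1% to 66.7% in NC and 56.5% to 86.9% among libraries labelled SFRP2-siRNA. The Pygl share moves with Pygm in the denominator, so Pygl was also set against the steadier Pygb. Pygb minus Pygl, as a difference of log2(FPKM + 1), was -1.85, -1.44 and -0.80 in NC 1, 2 and 3, and -0.12, 0.35 and 0.46 in SFRP2-siRNA 1, 2 and 3. By this measure the groups did not overlap. In FPKM, Pygl exceeded Pygb in all NC libraries and was below it in SFRP2-siRNA 2 and 3. In reads, not divided by length, Pygl was above Pygb in SFRP2-siRNA 2 and 3 too, at 4849 and 5062 against 4382 and 4931.

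**Figure D2:**
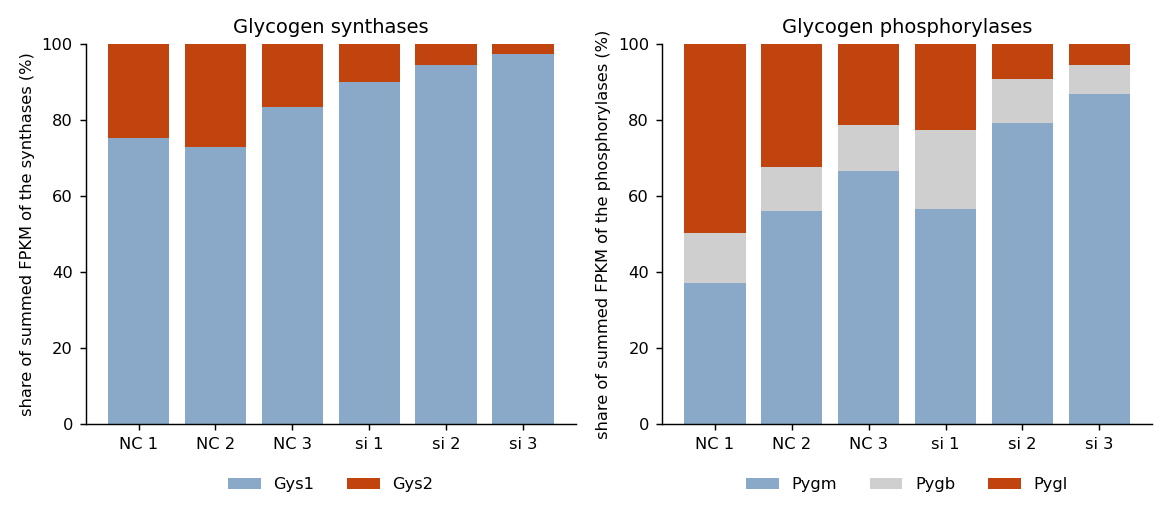
Share (%) of each isoform in the summed FPKM of the glycogen synthases (left) and phosphorylases (right) in each library, with si for SFRP2-siRNA. The Gys2 share is 16.5% to 27.0% in NC and 2.69% to 9.99% in SFRP2-siRNA, while the Pygl share of SFRP2-siRNA 1 (22.7%) is above that of NC 3 (21.3%).

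A wound biopsy mixes tissues, so the genes were set beside markers of fat and muscle. In bulk tissue, fewer cells of a type and less RNA per cell cannot be told apart. The 8 adipocyte markers, such as Adipoq, Plin1 and Lipe, summed to 1605 to 2109 FPKM in NC and 819 to 2186 FPKM among libraries labelled SFRP2-siRNA. The groups overlapped for each of the 8 markers. Their log2 fold changes differed, from -1.02 for Lipe and -0.86 for Plin1 to -0.16 for Cidec and 0.007 for Retn. A difference from their mean therefore depends on which markers are averaged, and single markers were not used in its place. SFRP2-siRNA 1 had the highest summed marker level of all libraries, and SFRP2-siRNA 3 the lowest. Relative to the mean of these markers, Gys2 was at -3.76, -3.31 and -4.50 on the log2 scale in NC 1, 2 and 3, and at -5.49, -5.06 and -5.01 in SFRP2-siRNA 1, 2 and 3. The groups did not overlap in this difference either. Pygl relative to the same markers was at -0.82, -0.83 and -1.54 in NC 1, 2 and 3, and at -2.36, -2.16 and -1.78 in SFRP2-siRNA 1, 2 and 3, again without overlap. Gbe1 overlapped once set against adipocyte markers, at -3.18 to -2.64 in NC and -3.68 to -2.62 among libraries labelled SFRP2-siRNA.

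Leukocytes also use Pygl. The 6 macrophage markers summed to 578 to 1060 FPKM in NC and 1202 to 1628 FPKM among libraries labelled SFRP2-siRNA, so they stood opposite to Pygl, and 2 of the 6 (Itgam and Lyz2) were higher without overlap. Neutrophil markers summed to 1117 to 1655 FPKM in NC, and to 4359, 5346 and 952 FPKM in SFRP2-siRNA 1, 2 and 3, with 1 of the 6 (Mmp8) higher without overlap. The 5 fibroblast markers, of which 4 were higher without overlap, summed to 566 to 1113 FPKM in NC and 1254 to 1368 FPKM among libraries labelled SFRP2-siRNA. Of all genes tested, 13.9% were higher without overlap, so these counts over few markers are only a description. The part of such shifts of tissue in the lower Gys2, Gbe1 and Pygl was not tested.

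Pygm and Ppp1r3c went with skeletal muscle. The 9 muscle markers, such as Acta1, Ckm and Myh4, summed to 3413, 4872 and 6398 FPKM in NC 1, 2 and 3, and to 4194, 6674 and 12055 FPKM in SFRP2-siRNA 1, 2 and 3. The groups overlapped for each of the 9, and 8 of the 9 were highest in SFRP2-siRNA 3, as were Pygm and Ppp1r3c. Relative to the mean of the muscle markers, Pygm was at -1.94 to -1.66 on the log2 scale in NC and -2.03 to -1.60 among libraries labelled SFRP2-siRNA, so most of its spread went with the markers. Ppp1r3c relative to the same markers was at -3.30, -3.36 and -3.35 in NC 1, 2 and 3, and at -3.77, -3.74 and -3.65 in SFRP2-siRNA 1, 2 and 3. Its groups, which overlapped in FPKM, did not overlap in this difference, which was 0.38 lower on the log2 scale among libraries labelled SFRP2-siRNA. This comparison was made after the values were seen and has no test.

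**Figure D3:**
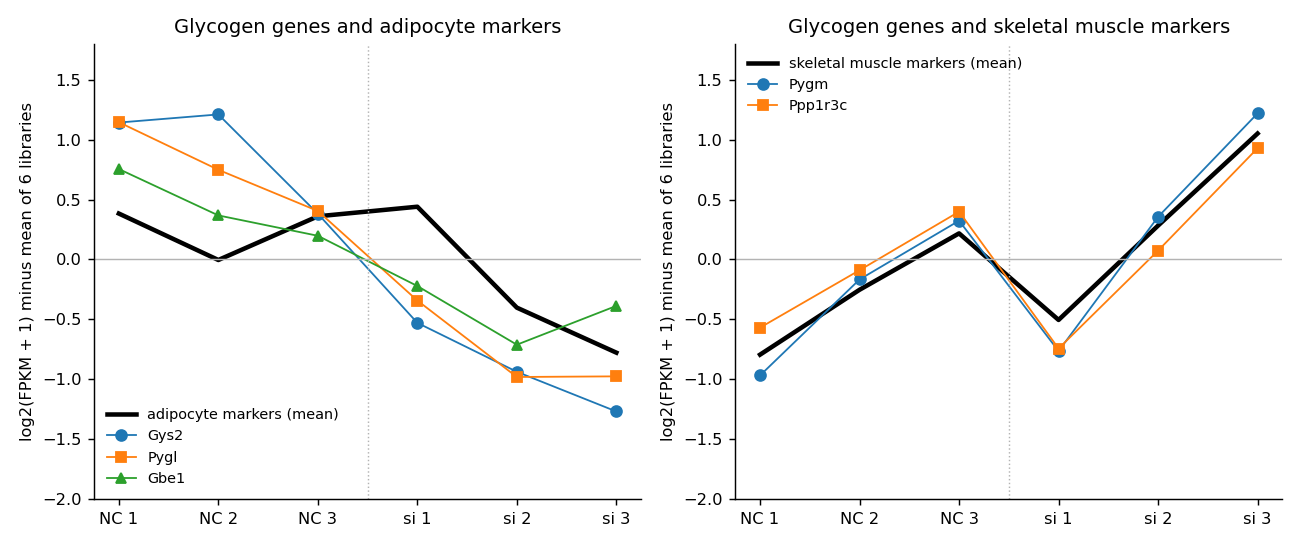
Values of log2(FPKM + 1) in each library, centred on the mean of the 6 libraries (vertical axis), for Gys2, Pygl and Gbe1 with the mean of 8 adipocyte markers (left) and for Pygm and Ppp1r3c with the mean of 9 skeletal muscle markers (right). Lines only guide the eye, si stands for SFRP2-siRNA, and in SFRP2-siRNA 1 the adipocyte markers are high while Gys2, Pygl and Gbe1 are low.

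The genes most like 4 of the members were looked up among 8110 genes averaging 5 FPKM or more, by the root mean square difference between centred log2(FPKM + 1) values over the 6 libraries. Gys2 was closest to Acaca and Acly, enzymes of fatty acid synthesis, and to Gm5182, with differences of 0.15, 0.17 and 0.18. Its own root mean square deviation was 0.97. Pygl was closest to Acadvl and Hadhb, enzymes of fatty acid oxidation, at 0.092 and 0.10, and to the lipid droplet gene Pnpla3 at 0.12. Pygm was closest to the muscle genes Eno3, Ckm (itself 1 of the muscle markers) and Myoz1, at 0.064, 0.11 and 0.14. Ppp1r3c was closest to Plpp7 at 0.046, to Stac3, a gene of muscle excitation-contraction coupling, at 0.097, and to Casq1, a muscle calcium store protein, at 0.11.

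Promoter sequence was read for the members that ran together, Pygl with Gbe1 and Pygm with Ppp1r3c. RefSeq windows of GRCm38.p6 reach from 250 bases before the gene start to 50 bases after it and were found for 7 of the 8 genes, all but Gys2. They were searched on both strands for CACGTG, the palindromic E-box, and for its part ACGTG, the core of hypoxia response elements, which every CACGTG also holds. The 250 bases before the start are printed 5′ to 3′ on the gene's strand, with matches to either motif in capitals.
Pygl, chr12:70227684-70227933, minus strand: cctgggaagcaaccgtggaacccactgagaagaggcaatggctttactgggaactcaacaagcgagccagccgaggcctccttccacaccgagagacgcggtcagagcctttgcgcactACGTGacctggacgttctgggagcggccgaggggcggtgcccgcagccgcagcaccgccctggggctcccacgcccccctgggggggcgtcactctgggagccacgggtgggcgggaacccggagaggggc
Gbe1, chr16:70313699-70313948, plus strand: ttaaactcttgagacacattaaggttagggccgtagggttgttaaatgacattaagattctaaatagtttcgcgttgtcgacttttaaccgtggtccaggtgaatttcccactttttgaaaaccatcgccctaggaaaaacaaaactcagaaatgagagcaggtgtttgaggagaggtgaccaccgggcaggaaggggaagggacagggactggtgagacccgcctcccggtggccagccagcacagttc
Pygm, chr19:6384158-6384407, plus strand: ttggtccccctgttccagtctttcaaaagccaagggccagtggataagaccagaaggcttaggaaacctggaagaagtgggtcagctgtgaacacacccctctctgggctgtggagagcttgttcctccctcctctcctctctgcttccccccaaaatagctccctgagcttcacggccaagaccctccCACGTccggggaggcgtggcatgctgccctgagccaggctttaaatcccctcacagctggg
Ppp1r3c, chr19:36736605-36736854, minus strand: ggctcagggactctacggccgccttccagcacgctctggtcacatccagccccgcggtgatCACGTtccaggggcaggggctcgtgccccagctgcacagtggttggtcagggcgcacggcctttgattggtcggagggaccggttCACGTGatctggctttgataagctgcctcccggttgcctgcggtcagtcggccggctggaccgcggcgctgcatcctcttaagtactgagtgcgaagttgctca

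Over the whole windows, CACGTG was in 2 of the 7 genes, Ppp1r3c and Gyg, and in 7.15% of all 32851 windows of this length. ACGTG was in 5 of the 7 (Gyg, Pygl, Pygm, Pygb and Ppp1r3c) and in 19.6% of all windows. The windows of Gys1 and Gbe1 held neither motif. Pygl and Gbe1, which ranked the libraries alike, thus did not share these letters in their windows, and Pygm and Ppp1r3c shared only ACGTG. A match is a description of the sequence and not of binding.

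Another 40 genes of glycogen supply and control were listed, of which 35 passed the filter. With limma, 0 of the 35 passed the adjusted threshold, and 5 had an unadjusted limma p under 0.05, beside 9.58% of all genes tested. Groups did not overlap for 4 of them. Lower among libraries labelled SFRP2-siRNA were Hk2, Ppp1r3b and Slc2a4, 3 of 35 beside 3.92% of all genes tested. Higher was Ppp1cc, 1 of 35 beside 13.9%. The median log2 fold change of the 35 was 0.086, beside 0.125 over all genes.

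Ppp1r3b, the phosphatase 1 targeting subunit of liver, had 17.5, 19.5 and 17.1 FPKM in NC 1, 2 and 3, against 10.2, 9.66 and 6.57 FPKM in SFRP2-siRNA 1, 2 and 3. Its log2 fold change was -0.97 (SE 0.18). Relative to the mean of the adipocyte markers its groups barely stayed apart, with NC 3 at -2.789 and SFRP2-siRNA 2 at -2.79 on the log2 scale. The other targeting subunits did not share this pattern: Ppp1r3a of muscle had 1.31 to 3.91 FPKM in NC and 2.28 to 5.77 FPKM among libraries labelled SFRP2-siRNA, and Ppp1r3d had 2.67 to 3.21 and 1.77 to 4.63 FPKM. Both overlapped. Ppp1r3e, Ppp1r3f and Ppp1r3g were under the filter.

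Slc2a4, the insulin-responsive glucose transporter GLUT4 of fat and muscle, had 59.0, 43.9 and 39.6 FPKM in NC 1, 2 and 3, against 21.0, 22.2 and 28.7 FPKM in SFRP2-siRNA 1, 2 and 3. Its log2 fold change was -0.95 (SE 0.20). Relative to the mean of the adipocyte markers its groups overlapped, at -1.62 to -1.08 in NC and -2.59 to -0.94 among libraries labelled SFRP2-siRNA. Slc2a1, the widely expressed GLUT1, overlapped, with 33.7 to 37.6 FPKM in NC and 26.3 to 55.7 FPKM among libraries labelled SFRP2-siRNA. Hk2, a hexokinase of insulin-responsive tissues that makes glucose 6-phosphate, had 30.7, 38.1 and 27.7 FPKM in NC 1, 2 and 3, against 19.3, 20.7 and 21.4 FPKM in SFRP2-siRNA 1, 2 and 3, a log2 fold change of -0.61 (SE 0.16). Hk3, the hexokinase of myeloid cells, was 5.64 to 9.77 FPKM in NC and 9.32 to 22.2 FPKM in the other group, so that the ranges just overlapped. Pgm1 and Ugp2, which carry glucose 6-phosphate on to UDP-glucose, overlapped, with log2 differences of 0.13 (SE 0.22) and 0.07 (SE 0.14).

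On the breakdown side, the 6 genes of phosphorylase kinase and its calmodulin subunit all overlapped. The muscle subunits ran with Pygm: Phka1 had 3.41, 5.89 and 7.40 FPKM in NC 1, 2 and 3 and 4.02, 8.14 and 13.1 FPKM in SFRP2-siRNA 1, 2 and 3, and Phkg1 was also highest in SFRP2-siRNA 3, at 8.59 FPKM. The liver subunits Phka2 and Phkg2 stayed between 5.14 and 6.91 FPKM and between 4.34 and 5.66 FPKM. None of these 6 genes separated the groups as Pygl did. The lysosomal glucosidase Gaa (19.5 to 29.1 FPKM over the 6 libraries) overlapped too. Ppp1cc, a catalytic subunit of phosphatase 1, had 17.3, 26.2 and 27.7 FPKM in NC 1, 2 and 3, against 35.1, 34.3 and 36.3 FPKM in SFRP2-siRNA 1, 2 and 3. The synthase kinases Gsk3a and Gsk3b overlapped, with log2 differences of -0.033 (SE 0.13) and 0.15 (SE 0.14). G6pc and Slc2a2, which mark the release of glucose from liver, were at most 0.075 and 0.032 FPKM.

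**Figure D4:**
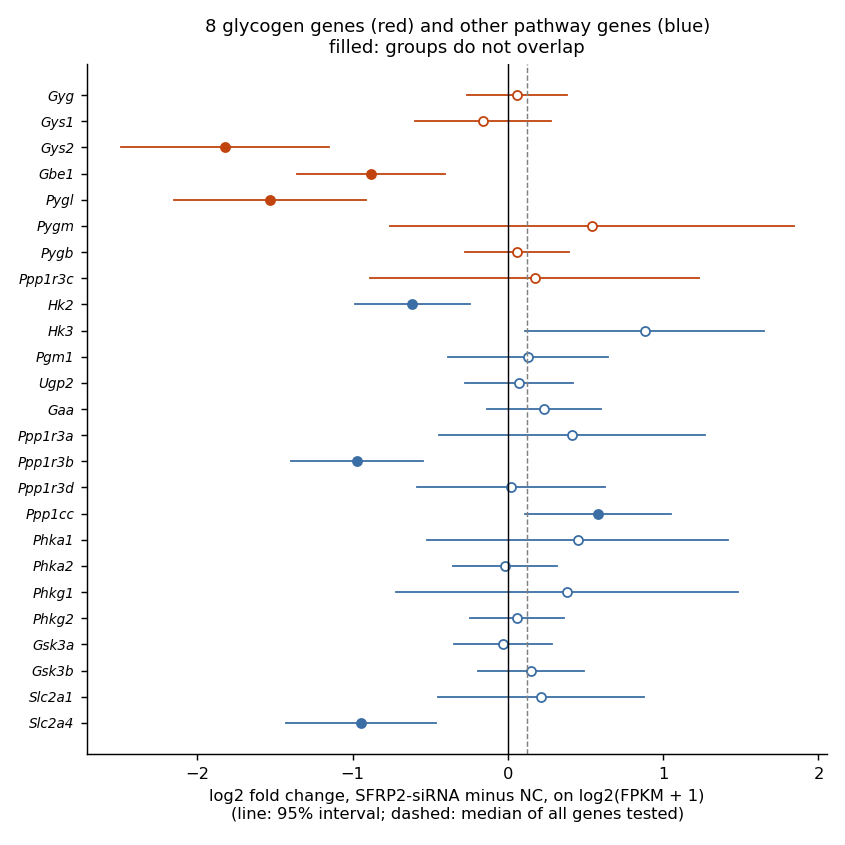
Log2 fold change on log2(FPKM + 1), SFRP2-siRNA minus NC, with its 95% limma interval (horizontal axis) for the 8 glycogen genes (red) and for the 17 other tested pathway genes named in the text (blue). Filled points mark groups that do not overlap, which are Gys2, Gbe1, Pygl, Hk2, Ppp1r3b and Slc2a4 to the left and Ppp1cc to the right, and the dashed line is the median of all genes tested, 0.125.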

How the data were processed

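Wound tissue RNA of 3 NC and 3 SFRP2-siRNA libraries, grouped by their titles, was analysed from 1 deposited table. The authors made paired-end mRNA libraries and deposited FPKM values per Ensembl gene. The submitters' processing notes name HISAT2, featureCounts and Subread, and the genome build and annotation were not given in the sources used here. Symbols came from a gene name table that matched 32582 of 33184 IDs. With exon lengths of GENCODE vM21, 98.3% to 98.4% of values under 1000 reads came within 0.02 of a whole read, which gave totals and reads per gene. Of values of 1 to 20 reads, 64.6% were even, so reads may not be independent of each other. Fold changes are on log2(FPKM + 1), tested with limma 3.58.1 in R 4.3.3 (intensity trend, two-sided, Benjamini-Hochberg adjustment over 16005 genes averaging 0.5 FPKM or more) and the study's own thresholds, an adjusted p under 0.05 and an absolute log2 fold change above 1. The fit was tested on simulated data. No values were identical above 0 between 2 libraries of a group. The members, the 40 other pathway genes, the marker lists and the naming rule were chosen with earlier results of these data known. The rule named the 8 members, pathway genes called or up to 6 with groups apart, the 3 closest genes to 4 members, Sfrp2 and the markers. Other pathway genes are named to describe their group and were chosen after their values were seen. Endothelial, keratinocyte and smooth muscle markers overlapped between groups, with summed FPKM of 45.2 to 78.2, 3345 to 6829 and 279.9 to 595.8. Some items of the lists are not reported here.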

Additional observations from a re-analysis of the deposited data

How the results depend on the processing

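In 15 alternatives 0 genes passed the adjusted threshold, and the smallest adjusted limma p of any gene was 0.157, and 0.18 of a glycogen gene. Gys2 ran from -2.52 (limma voom) to -1.65 on the log2 scale, Pygl from -1.75 to -1.34 and Gbe1 from -1.03 to -0.72. These 3 genes kept groups apart in each alternative. Only rescaling to equal sums, median-of-ratios scaling, quantile normalization and limma voom could have changed that. The others keep the order of libraries or leave 1 out, which cannot make separate groups overlap. Of 120 fits of the 8 genes, 7 reversed. Fits with another filter, with no intensity trend or with a block for the library number keep the main log2 fold changes and could not reverse. With median-of-ratios scaling and quantile normalization Gyg was -0.097 and -0.038 and Pygb -0.093 and -0.037. These scalings, and rescaling to equal sums, set the median of all genes at 0.005, 0.025 and 0.196 in place of 0.125. Without SFRP2-siRNA 3, Gyg was -0.016 and Ppp1r3c -0.248, and without NC 1 Ppp1r3c was -0.068. Over fits without 1 library each, Gyg ran from -0.016 to 0.098, Ppp1r3c from -0.248 to 0.588 and the unadjusted count of 1533 genes from 887 (without NC 1) to 1970. Without SFRP2-siRNA 2 it was 948. The same fits gave 1 to 6 other pathway genes higher and 3 to 5 lower with groups apart, and 0 to 1 glycogen genes higher (Pygb without NC 3, Pygm without SFRP2-siRNA 1) and 3 to 4 lower (Gys1 added without SFRP2-siRNA 3), where fewer libraries make separation easier. With no filter 2 other pathway genes were higher, as more genes were tested, and with median-of-ratios scaling 5 were lower. With a pseudocount of 0.1 the difference of Gys2 minus Gys1 between groups was -2.25 in place of -1.66, since Gys2 is low. The median of the 8 genes, -0.051, was 0.040 after rescaling to equal sums, -0.206 with median-of-ratios scaling and -0.291 to -0.001 without 1 library each. Limma voom on recovered reads was added after the data were seen and reversed none of the 8 genes.

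Deviations of equally numbered libraries from the mean of their group correlated at -0.047, -0.151 and 0.38. So few values cannot settle whether the numbers pair the libraries. Pygm and Ppp1r3c rose with the library number in both groups. With a block for the library number in the fit, 0 genes passed. Every number occurs in both groups, so the block cannot change a log2 fold change, only its error and p. The adjusted limma p went from 0.518 to 0.193 for Gys2 and Pygl and to 0.259 for Gbe1. The count of genes at an unadjusted limma p under 0.05 went from 1533 to 1929.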
